A study of Homo sapiens with 6 samples.

Results

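The genes described here encode the machinery that copies DNA: the helicase and its loaders, the kinase and factors that fire origins, the polymerases, the clamp and its loader, single-strand binding proteins, the enzymes that finish the lagging strand and supply nucleotides, and a histone chaperone. They were chosen by name, as a list of 52 genes, with earlier results of these data known. All 52 were among the 11963 genes measured by a probe set of their own. Each gene was read by the brightest probe set annotated to it alone. The arrays profiled HCT116, an established human colon cancer cell line, carrying a lentiviral hairpin (vector FUGW) against NFX1-91 or against β-galactosidase, the control. Both groups had 3 arrays, and both carried a stably expressed hairpin. NFX1-91 is a splice form of the zinc finger protein NFX1, known as a repressor of the telomerase gene TERT. Whether replicate arrays stand for separate infections, cultures or clones is not said in the labels, so the spread behind each p-value may be only technical.

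Replication begins when the origin recognition complex (ORC), CDC6 and CDT1 load the MCM2-7 ring onto DNA in G1. At the start of S phase the kinase CDC7-DBF4 helps to convert loaded rings into active helicases, which also hold CDC45 and the GINS complex. Polymerase alpha-primase then primes synthesis, and polymerases delta and epsilon extend the strands with the clamp PCNA, loaded by RFC, while RPA covers single-stranded DNA. Many of these genes are textbook targets of E2F transcription factors, which act at the passage from G1 to S.

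The hairpin's target was read first. Of 3 NFX1 probe sets, which may also read other splice forms of NFX1, the brightest read 159, 144 and 139 in the control arrays and 124, 139 and 138 with the NFX1-91 hairpin (scaled signal, in which each array has a mean of 500), with overlap between groups (log2 fold change -0.13, NFX1-91 minus control, adjusted p = 0.400 over probe sets). The second did not pass either (-0.06), and the dimmest fell from 19.6 ± 4.17 to 7.42 ± 2.48 (SD, n = 3 arrays per group; -0.60, adjusted p = 0.0137), close to the lower end of the scale. These probe sets therefore do not settle how far NFX1-91 itself was lowered. Arrays of one group correlated at 0.992 to 0.995 (Pearson) and arrays of different groups at 0.983 to 0.985. Of 12 colon epithelial markers 9 were above the median signal of all genes, CDX1, CDX2 and VIL1 being below it, with 2 higher and 4 lower genes. Their summed signal was 26208 to 26932 in control arrays and 29980 to 30199 with the NFX1-91 hairpin. The 2 higher genes were the bright KRT18 (mean 7403 in control and 10739 with the NFX1-91 hairpin) and KRT8 (5556 and 7065). The 4 lower ones were CLDN7 (log2 fold change -1.11), CDH1 (-0.50), ELF3 (-0.21) and EPCAM (-0.15). The higher sum therefore does not stand for the list as a whole. Fibroblast markers (8 measured) and those of kidney cells (4) had 0 called genes, with sums of 289 to 377 and 321 to 376, and 99.5 to 111 and 85.8 to 119. Of 6 blood cell markers HBB was higher, with sums of 126 to 141 and 154 to 201, and PTPRC, CD14 and LYZ had means below 16 in both groups. The part of these markers in the results on replication genes was not tested.

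With the NFX1-91 hairpin 25 of the 52 genes fell, 7 rose and 20 did not pass the threshold (limma, Benjamini-Hochberg adjusted p under 0.05 over all genes). Over all genes tested, 17.8% were lower and 14.7% higher, against 48.1% and 13.5% of the replication genes. As the list was chosen with earlier results of these data known, these shares are only a description. In either direction 61.5% of the replication genes passed, against 32.5% of all genes. Replication genes are bright on these arrays, from percentile 53.3 to 98.8 of mean signal, and bright genes pass more often. When genes below percentile 40 were left out, 29.8% of the remaining genes were lower and 25.2% higher, beside 27 lower and 7 higher replication genes. The median log2 fold change, called log2 change from here on, was -0.17 over the replication genes and 0.00 over all genes. In RNA from whole cultures, fewer cells in S phase and less RNA per cell cannot be told apart. None of the 52 changed by a log2 value of 1, and the changes ran from -0.84 to 0.61. All 3 NFX1-91 values lay below all 3 control values for 27 genes and above them for 7, together 65.4% of the list, beside 43.5% of all genes.

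**Figure D1:**
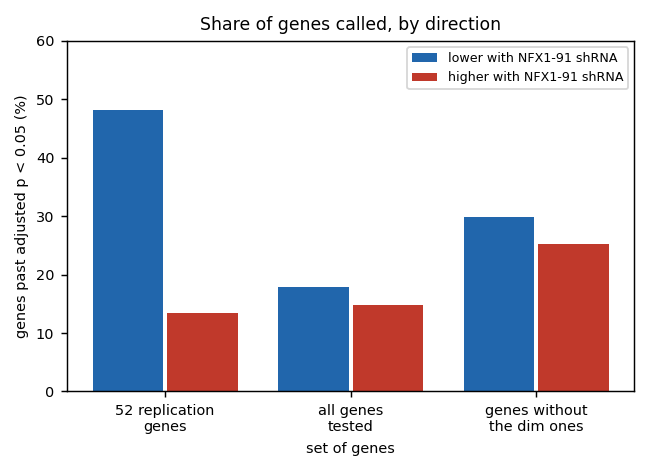
Share of genes past the adjusted threshold in percent, lower (blue) and higher (red) with NFX1-91 shRNA, for the 52 replication genes, all genes tested and the genes left after the dim ones were removed. The lower share is 48.1% for the replication genes and 17.8% and 29.8% for the other sets, while the higher shares are 13.5%, 14.7% and 25.2%. The last set was fitted separately, and in that fit 27 of the 52 replication genes were lower and 7 higher.

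Centring each array on the median of the tested genes, tried after the data were seen, turned the share of lower genes among all calls from 54.7% to 42.0%. The share among called replication genes was 78.1% before and 75.0% after, with 21 lower and 7 higher.

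The regulatory sequence of these genes is shown because an E2F motif, which played no part in choosing them, was found for 21 of them. RefSeq promoter windows (GRCh38.p14, from 250 bases before to 50 after a start) were found for 46 of the 52 genes. They were searched on both strands for 4 E2F motifs, TTTGGCGC, TTTCCCGC, TTTGCCGC and TTTCGCGC, of which the last can overlap a copy of another on the opposite strand. At least 1 window held a motif for 21 of the 46 genes, or 45.7%, against 6.08% of the 9563 tested genes with a window. Counted over windows, 33.3% of 63 member windows and 3.31% of all 35116 held one. The 8 stretches below each have 80 bases, are written 5′ to 3′ on the strand of the gene, stop before the start site and carry in capitals each E2F motif that lies wholly inside the stretch. They were picked to show genes that fell, rose and did not pass. The first 6 run from position -80 to -1, as does that of POLE, and the one of MCM6 from -160 to -81.
CDT1 (chr16:88803709-88803788, plus strand): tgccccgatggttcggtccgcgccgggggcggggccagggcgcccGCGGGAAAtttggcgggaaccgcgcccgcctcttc
GINS2 (chr16:85688955-85689034, minus strand): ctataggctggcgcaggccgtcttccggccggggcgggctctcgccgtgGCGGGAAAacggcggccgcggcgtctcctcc
RFC3 (chr13:33818069-33818148, plus strand): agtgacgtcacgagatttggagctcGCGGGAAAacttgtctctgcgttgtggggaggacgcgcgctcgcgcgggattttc
TYMS (chr18:657573-657652, plus strand): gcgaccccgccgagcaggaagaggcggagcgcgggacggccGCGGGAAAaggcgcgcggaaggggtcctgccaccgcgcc
MCM7 (chr7:100101398-100101477, minus strand): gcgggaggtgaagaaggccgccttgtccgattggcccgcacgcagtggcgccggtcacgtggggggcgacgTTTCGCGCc
PCNA (chr20:5126623-5126702, minus strand): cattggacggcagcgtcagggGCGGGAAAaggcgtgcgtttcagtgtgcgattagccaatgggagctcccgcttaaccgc
POLE (chr12:132687343-132687422, minus strand): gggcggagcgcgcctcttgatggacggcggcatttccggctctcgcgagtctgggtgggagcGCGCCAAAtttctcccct
MCM6 (chr2:135876524-135876603, minus strand): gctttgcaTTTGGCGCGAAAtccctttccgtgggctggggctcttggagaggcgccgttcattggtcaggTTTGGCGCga

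The first 5 of these genes fell, PCNA rose, and POLE and MCM6 did not pass. An E2F motif was present in 10 of 20 genes that fell, 9 of 19 that did not pass and 2 of 7 that rose, among those with a window. The median log2 change was -0.19 over the 21 genes with a motif and -0.13 over the 25 with a window and no motif. The genes without a window enter none of these counts and medians. Of them MCM4, GINS4, RPA2, RPA3 and POLD3 fell and MCM5 did not pass. The CCAAT box, searched as CCAAT on both strands, was present in 49.2% of the member windows and 34.6% of all windows. The E-box CACGTG was in 12.7% and 7.26%. Counted over genes with a window, the CCAAT box was present for 56.5% of the replication genes and 44.2% of the tested genes. For the E-box these shares were 17.4% and 12.0%. All of these motif counts are of letter matches in a fixed window and do not show binding.

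Counts by role, here and below, are of few genes and were not tested. They stand beside 17.8% lower and 14.7% higher over all genes, and 29.8% and 25.2% after the dim ones were left out. Within the MCM2-7 helicase, MCM4, MCM7 and MCM3 fell and MCM2, MCM5 and MCM6 did not pass. MCM4 read 1854, 2004 and 1908 in the control arrays and 1017, 1041 and 1156 in the NFX1-91 shRNA arrays. All 3 NFX1-91 values lay far below all 3 control values, and the log2 change was -0.83 (SE 0.056, adjusted p = 5.74e-06). The mean signals, without the offset, differed 1.79-fold. MCM7 went from 3325 ± 40.1 to 2703 ± 183 (SD, n = 3 per group; log2 change -0.30, SE 0.049, adjusted p = 0.00111). MCM3 went from 2066 ± 45.9 to 1814 ± 41.5 (-0.19, adjusted p = 0.0045). Both sets of arrays stood apart, and the mean signals fell by 18.7% and fell by 12.2%. The log2 changes of the other subunits were -0.14 for MCM2, -0.08 for MCM6 and -0.08 for MCM5, so all 6 values were below 0. Within each array, the log2 ratio of MCM4 to the mean of the other 5 subunits was lower by 0.68 with the NFX1-91 hairpin, and the groups did not overlap. The exact two-sided permutation p was 0.1, the smallest that 3 against 3 arrays allow. With the MCM4 groups so far apart, it adds no support beyond the fall of MCM4 itself. That ratio, like all ratios between subunits below, was chosen after the fold changes had been seen.

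**Figure D2:**
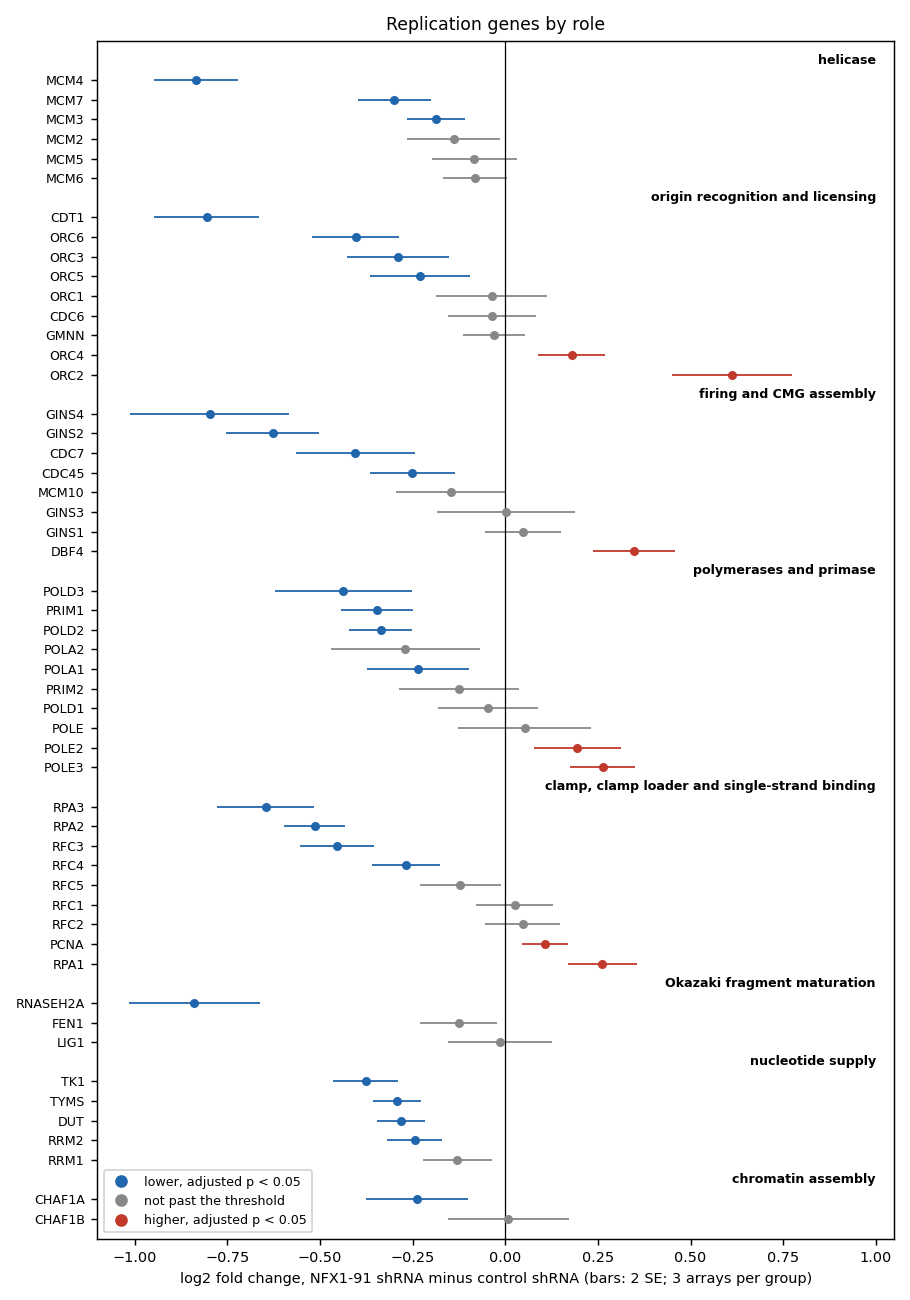
Log2 change of each of the 52 replication genes (NFX1-91 shRNA minus control shRNA, bars of 2 SE, 3 arrays per group), sorted within its role. Blue genes fell, red genes rose and grey genes did not pass the adjusted threshold; RNASEH2A (-0.84), MCM4 (-0.83), CDT1 (-0.81) and GINS4 (-0.80) lie farthest left and ORC2 (0.61) farthest right.

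Among 9 genes of origin recognition and licensing, 4 fell and 2 rose. CDT1, which brings the MCM ring to origins, read 651, 760 and 762 in control arrays and 417, 410 and 394 in NFX1-91 shRNA arrays (log2 change -0.81, SE 0.071, adjusted p = 2.49e-05). Every NFX1-91 value was well under the lowest control value. Its inhibitor geminin (GMNN) had a log2 change of -0.03 (SE 0.042, adjusted p = 0.662), with 1990 ± 68.9 and 1949 ± 49.0. The CDT1 to GMNN log2 ratio, also chosen after the fold changes had been seen, was lower by 0.78 without overlap (exact permutation p = 0.1). Its lack of overlap and its p followed from the fall of CDT1 beside a GMNN that hardly moved, and add no support. The loader CDC6 had a log2 change of -0.04 (adjusted p = 0.721). Its other probe set read -0.12 (adjusted p = 0.0865 over probe sets) and did not pass, though its NFX1-91 values all lay below its control values.

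Of the 6 ORC subunits 2 rose, 3 fell and ORC1 did not pass. ORC2 rose most of all replication genes, from 326, 331 and 309 to 443, 528 and 535, a log2 change of 0.61 (SE 0.081, adjusted p = 0.000283). The groups stood apart, though the first NFX1-91 array rose less than the other two. ORC6, the smallest and most loosely bound subunit, fell from 969, 1058 and 919 to 726, 749 and 739 (log2 change -0.40, SE 0.059, adjusted p = 0.000526), with tight NFX1-91 values. The ORC6 to ORC2 log2 ratio was lower by 1.02 (exact permutation p = 0.1). Its lack of overlap and its p followed from the opposite moves of the 2 genes and add no support. ORC3 fell by 0.29 (adjusted p = 0.00934). ORC1, the subunit that cycles with S phase entry, had a log2 change of -0.04 (adjusted p = 0.769).

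Of 8 genes that fire origins and assemble the active helicase, 4 fell and DBF4 rose. GINS4 went from 190, 238 and 244 to 116, 121 and 127 (log2 change -0.80, SE 0.107, adjusted p = 0.000325), and GINS2 from 1656, 1535 and 1447 to 952, 966 and 1067 (-0.63, SE 0.063, adjusted p = 5.17e-05). Neither gene's groups overlapped. Their partners GINS1 and GINS3 read 778 ± 33.7 and 805 ± 17.1, and 379 ± 39.1 and 380 ± 37.6, with log2 changes of 0.05 and 0.00. Of the 4 subunits of this complex, then, 2 fell and 2 did not pass. CDC45, which joins GINS and MCM2-7 in the moving helicase, fell from 546 ± 14.0 to 456 ± 16.3 (-0.25, adjusted p = 0.00731). MCM10 had a log2 change of -0.15 (adjusted p = 0.172).

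The kinase CDC7 and its activating subunit DBF4 moved in opposite directions. CDC7 read 902, 843 and 779 in the control arrays and 562, 676 and 660 in the NFX1-91 shRNA arrays (log2 change -0.40, SE 0.080, adjusted p = 0.00337). DBF4 read 886, 930 and 843 against 1081, 1129 and 1186 (0.35, SE 0.055, adjusted p = 0.000898). Neither gene's groups overlapped, and the CDC7 to DBF4 log2 ratio was lower by 0.75 (exact permutation p = 0.1). With the groups of both genes apart in opposite directions, that p was fixed in advance and adds no support.

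**Figure D3:**
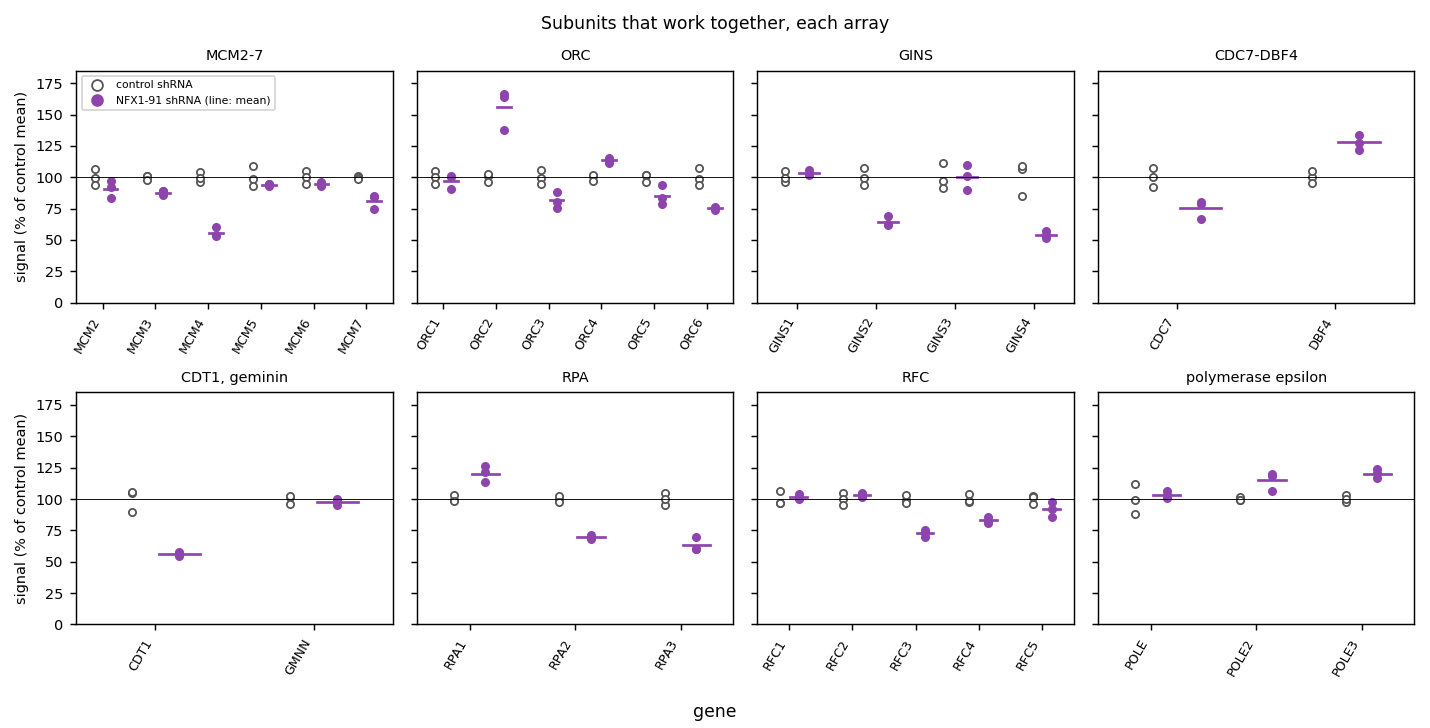
Signal of each array as a percentage of the gene's control mean, for subunits that work together (open circles control shRNA, filled circles NFX1-91 shRNA, line at the NFX1-91 mean, 3 arrays each). MCM4, CDT1, GINS2, GINS4, RPA2 and RPA3 lie well below 100% while partners such as GMNN, GINS1 and RPA1 lie near or above it; no level is compared between genes.

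Of 10 polymerase and primase genes 4 fell, 2 rose and 4 did not pass. In polymerase delta, which extends the lagging strand, POLD2 fell from 1409 ± 21.4 to 1113 ± 27.7 (log2 change -0.34, SE 0.042, adjusted p = 0.000211) and POLD3 from 251 ± 26.9 to 181 ± 8.62 (-0.44, adjusted p = 0.00478). The catalytic subunit POLD1 had a log2 change of -0.05 (adjusted p = 0.680). In polymerase alpha-primase all 4 values were below 0. The primase subunit PRIM1, which makes the RNA primer, fell from 913, 950 and 926 to 704, 732 and 748 (-0.35, SE 0.048, adjusted p = 0.000415), and its groups stood far apart. POLA2 read -0.27 (adjusted p = 0.0679; -0.17 without control replicate 1) and PRIM2 -0.13 (adjusted p = 0.289). In polymerase epsilon, the leading-strand enzyme, all 3 values were above 0. POLE3, a histone-fold subunit, rose from 1281, 1354 and 1312 to 1628, 1585 and 1534 (0.26, SE 0.044, adjusted p = 0.00117), without overlap. The catalytic subunit POLE had a log2 change of 0.05 (adjusted p = 0.724).

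The RPA trimer, which coats single-stranded DNA, was split within itself. RPA2 read 1634, 1666 and 1598 in control arrays and 1116, 1160 and 1140 in NFX1-91 shRNA arrays (log2 change -0.51, SE 0.041, adjusted p = 1.44e-05). RPA3 read 1427, 1571 and 1502 against 905, 906 and 1051 (-0.65, SE 0.066, adjusted p = 5.67e-05). The large subunit RPA1 read 2010, 2094 and 1993 against 2559, 2468 and 2301 (0.26, SE 0.047, adjusted p = 0.0018). Thus the small subunits fell and the large one rose, each without overlap between groups. The log2 ratio to RPA1 was lower by 0.78 for RPA2 and by 0.91 for RPA3 (exact permutation p = 0.1 for each). Those p-values were fixed by the opposite moves of the genes and add no support. The RPA3 to RPA2 ratio overlapped between groups (shift -0.13, exact permutation p = 0.2).

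Of the 5 RFC clamp loader genes, RFC3 and RFC4 fell. RFC3 went from 1069, 1114 and 1045 to 754, 782 and 809 (log2 change -0.45, SE 0.050, adjusted p = 9.11e-05), and RFC4 from 1683 ± 62.1 to 1395 ± 45.7 (-0.27, SE 0.045, adjusted p = 0.00135). Both stood apart from control. The large subunit RFC1 and the small subunit RFC2 had log2 changes of 0.03 and 0.05.

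RNASEH2A, the catalytic subunit of the ribonuclease that removes ribonucleotides and RNA from DNA, had the lowest log2 change with the offset of 16. By mean signal GINS4 fell further, 1.84-fold against 1.80-fold. RNASEH2A read 893, 836 and 835 in control arrays and 416, 458 and 546 in NFX1-91 shRNA arrays (log2 change -0.84, SE 0.089, adjusted p = 7.10e-05). The NFX1-91 arrays spread more widely than the controls but stayed well below them. The flap nuclease FEN1 and the ligase LIG1, which act in the same step of lagging-strand completion, had log2 changes of -0.13 (adjusted p = 0.0981) and -0.01 (adjusted p = 0.923).

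Of the 5 genes of nucleotide supply 4 fell. Thymidylate synthase TYMS, which makes dTMP from dUMP, read 5949, 5969 and 6264 in control arrays and 5017, 4857 and 4960 in NFX1-91 shRNA arrays (log2 change -0.29, SE 0.033, adjusted p = 9.65e-05). Thymidine kinase TK1 fell from 1985, 1828 and 1909 to 1487, 1464 and 1443 (-0.38, SE 0.043, adjusted p = 0.000117). The mean of TYMS fell by 18.4% and that of TK1 fell by 23.2%, and for both genes the groups stood apart. The dUTPase DUT, which keeps uracil out of DNA, fell from 3106 ± 22.1 to 2554 ± 24.2 (-0.28, adjusted p = 0.000122). RRM2, the regulated small subunit of ribonucleotide reductase, fell from 4883 ± 163 to 4120 ± 122 (-0.24, adjusted p = 0.0007). Its partner RRM1 read -0.13 (adjusted p = 0.0615), and the RRM1 to RRM2 ratio overlapped between groups (shift 0.12, exact permutation p = 0.2). A second RRM1 probe set had the opposite sign (0.08, adjusted p = 0.393 over probe sets), and the mean of both read -0.02.

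**Figure D4:**
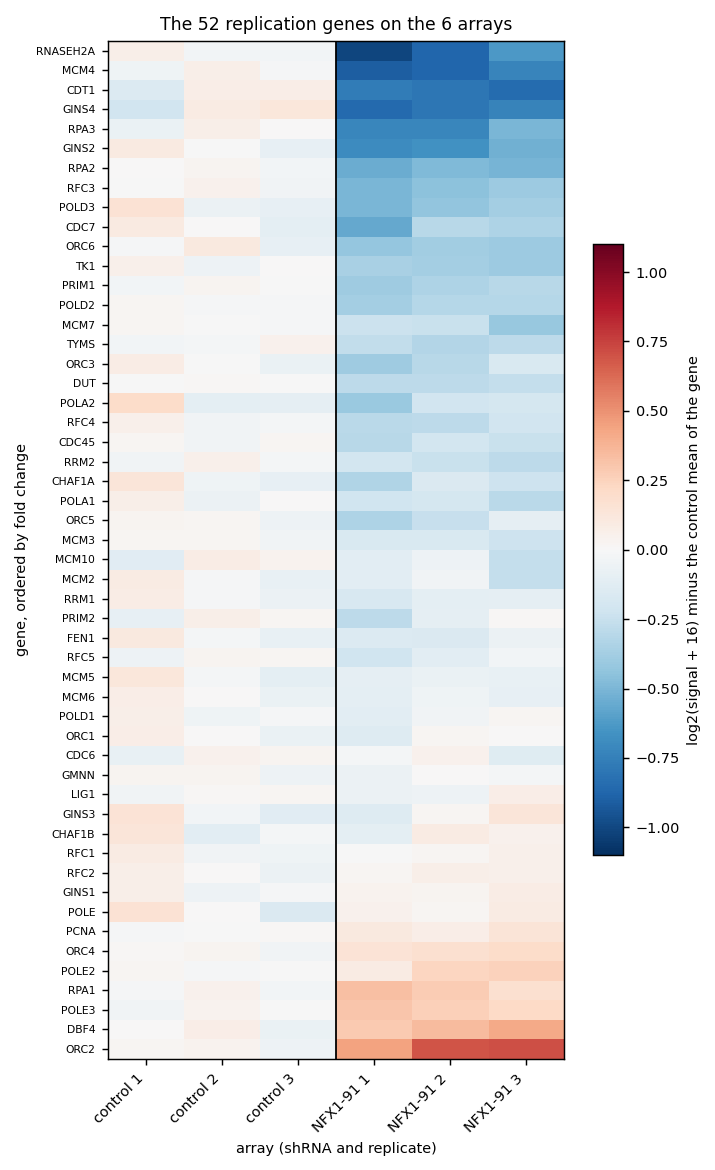
Log2(signal + 16) of all 52 genes on each of the 6 arrays, minus the control mean of the gene, ordered by fold change. The 3 control arrays vary around 0, and the NFX1-91 shRNA arrays are mostly blue from RNASEH2A downwards and red from ORC2 upwards; the median over the 52 genes is -0.21, -0.16 and -0.18 on them and 0.02, 0.00 and -0.03 on the controls.

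On the NFX1-91 shRNA arrays 42, 36 and 35 of the 52 genes lay below their control mean. On the control arrays 18, 24 and 39 genes did, so by this count control replicate 3 lay among the NFX1-91 arrays, although its median over the genes was -0.03.

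For 25 of the 32 called genes, 21 lower and 4 higher (ORC2, DBF4, RPA1 and POLE3), the call held under all 16 alternative settings. The other calls were weaker. PCNA, the sliding clamp, read 4953, 4977 and 5024 against 5364, 5238 and 5505 (log2 change 0.11, SE 0.031, adjusted p = 0.0245), a rise of 7.71%. Its adjusted p was 0.0768 without control replicate 2, 0.0644 without NFX1-91 replicate 1, 0.0914 without NFX1-91 replicate 3, 0.0725 after quantile normalization and 0.209 without a variance trend, while centring on the tested genes raised its log2 change to 0.17. POLE2, a polymerase epsilon subunit, rose by 0.19 (adjusted p = 0.0284), which became 0.0933 and 0.0760 without control replicates 2 and 3, and 0.126 and 0.0838 without NFX1-91 replicates 2 and 3. ORC4 rose by 0.18 (adjusted p = 0.0121), with 0.0549 without NFX1-91 replicate 2, 0.222 for the mean of its probe sets (log2 change 0.10) and 0.852 for the probe set left when shared ones were dropped (0.03). Of the 7 genes that rose, these 3 lost the call without at least 1 single array.

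Among weaker falls, the polymerase alpha catalytic subunit POLA1 had a log2 change of -0.24 (adjusted p = 0.0243). Its adjusted p was 0.0584 and 0.0662 without control replicates 1 and 3, and 0.0595 and 0.0633 without NFX1-91 replicates 2 and 3. With the replicate number as a block it was 0.0548. CHAF1A, the large subunit of the histone chaperone CAF-1, fell by 0.24 (adjusted p = 0.0234), with 0.0536 without control replicate 1, and 0.0878 and 0.0585 without NFX1-91 replicates 1 and 3. Its partner CHAF1B had a log2 change of 0.01 (adjusted p = 0.961), and the log2 ratio of the pair was lower by 0.25 without overlap (exact permutation p = 0.1). ORC5 fell by 0.23 (adjusted p = 0.0254), but its adjusted p was 0.0609 and 0.0922 without control replicates 1 and 2, and 0.0835 and 0.102 without NFX1-91 replicates 1 and 2. For ORC5 and POLE2 the block gave 0.0508 and 0.0563. Centring on the median of all probe sets gave 0.0628 for POLA1, 0.0553 for CHAF1A and 0.0530 for ORC5. Centring on the tested genes gave 0.0873, 0.0716 and 0.0531 in the same order. POLA1 also missed the threshold after quantile normalization (0.0850). Without a variance trend the values were 0.0853 for CHAF1A, 0.0808 for ORC5, 0.0777 for POLE2 and 0.0572 for ORC4. MCM3 kept its call without any single array, and its adjusted p was 0.0512 without a variance trend and 0.0837 after centring on the tested genes (log2 change -0.12). Conversely MCM10 passed without control replicate 1 (adjusted p = 0.0489), FEN1 and RRM1 without control replicate 3 (0.0456 and 0.0380) and RFC5 without NFX1-91 replicate 3 (0.0489).

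The 52 genes had 77 probe sets in all, and 18 genes had several. Over all probe sets on the array 25.7% passed when tested by themselves. Of 10 called genes with several probe sets, 6 (CHAF1A, DUT, MCM4, RFC3, RPA1 and RRM2) had another called the same way and 0 had one called the opposite way. The 4 MCM4 probe sets had log2 changes of -0.83, -0.66, -0.94 and -0.60, and the last did not pass, its control arrays reading 403, 866 and 888. RFC5 disagreed with itself: its brightest probe set read -0.12, another -0.04, and the dimmest fell from 393 ± 54.2 to 212 ± 7.68 (log2 change -0.83, adjusted p = 0.000459 over probe sets). RFC1 had a second probe set that rose by 0.23 (adjusted p = 0.0269 over probe sets), beside 0.03 for the brightest. For MCM7 the other probe set read -0.14 (adjusted p = 0.105 over probe sets), for ORC4 0.03 (0.865), and for ORC5 the others read -0.05 and 0.38, the latter near the lower end of the scale. The other 22 called genes have a single probe set, so no second reading of them was made. Probe sets annotated to PRIM2 together with its pseudogene copy PRIM2BP were left out; the brighter read 497 ± 134 and 522 ± 68.4.

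**Figure D5:**
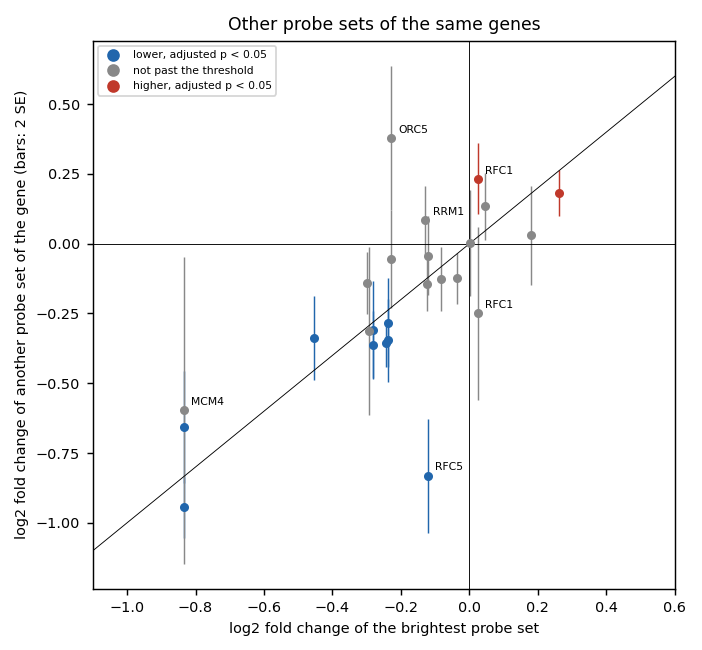
Log2 change of every further probe set of a replication gene (vertical axis, bars of 2 SE, colour by its own call over probe sets) against that of the brightest probe set used here (horizontal axis); the thin diagonal marks equal values. MCM4, RFC3, DUT, RRM2 and CHAF1A lie in the lower left, and RFC5 (-0.83 against -0.12) and ORC5 (0.38 against -0.23) lie far from the diagonal.

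Over all genes 17.8% were lower and 14.7% higher, and after the dim ones were left out 29.8% and 25.2%. Beside this stands a list of 39 other replication genes outside the 52, also chosen with earlier results known. Of its 30 measured genes 13 were lower (43.3%) and 3 higher (10.0%), with a median log2 change of -0.14. The 4 with the smallest adjusted p were topoisomerase TOP1 (-0.63, adjusted p = 3.50e-06), the histone chaperone ASF1B (-0.46), RBBP4, the third subunit of CAF-1 (-0.51), and the MCM-binding protein MCMBP (-0.36), all lower. The 3 that rose, named after their values were seen, were RBBP7 (0.15), SUPT16H (0.23) and ASF1A (0.25). The call of ASF1A turned with the probe set: without shared probe sets it read -0.23 (adjusted p = 0.0334, lower), and with the mean of its probe sets 0.01 (adjusted p = 0.935). Its adjusted p was also 0.0579, 0.0966 and 0.0628 without NFX1-91 replicates 1, 2 and 3. RBBP7 and SUPT16H did not pass without a variance trend (adjusted p = 0.0924 and 0.0554).

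Of 19 measured regulators of S phase entry 6 were lower (31.6%) and 2 higher (10.5%), with a median log2 change of -0.11. Beside this, 17.8% of all genes were lower and 14.7% higher. After the dim genes were left out the shares were 29.8% and 25.2%, so the lower share of this list is near that of brighter genes. E2F8, a repressor E2F, fell from 401 ± 5.30 to 186 ± 32.6 (-1.06, adjusted p = 5.95e-05), and E2F1, an activator of replication genes, from 223 ± 13.5 to 131 ± 1.38 (-0.70, adjusted p = 0.000147; -0.36, adjusted p = 0.00964, without shared probe sets). The kinase CDK2 fell by 0.72 and the APC/C inhibitor FBXO5 by 0.74. Cyclins CCNE1 and CCNA2 had log2 changes of -0.05 and 0.03 (adjusted p = 0.468 and 0.825). Among 12 markers of G2 and mitosis 5 were lower (41.7%) and 3 higher (25.0%), with a median of -0.03, AURKB (-0.94), KIF11 (-0.89) and AURKA (-0.55) falling and TPX2 rising by 0.43. Read without shared probe sets, AURKA missed the threshold (-0.33, adjusted p = 0.295). The proliferation marker MKI67 had a log2 change of 0.09 (adjusted p = 0.342), but -0.38 (adjusted p = 0.00516) with the mean of its probe sets. The part of these genes in the results on replication genes was not tested.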

How the data were processed

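Biotin-labelled cRNA from total RNA was hybridised to Affymetrix arrays, per the labels. The authors deposited linear intensity values of 22215 probe sets, stored as shares of the total of each array (every array adds up to 1). The sources used here do not state the summary and scaling method. Each array was multiplied to a mean of 500 and log2(signal + 16) was taken; log2 fold changes are on that scale, and folds or percentages of mean signals have no offset. Between 24.1% and 25.9% of an array's probe sets lay below 16, and none of the probe sets chosen for the 52 genes did. The platform annotation gave 19064 probe sets 1 gene, 1043 several and 2108 none.

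The fit used limma 3.58.1 under R 4.3.3 (variance trend, unpaired, two-sided, Benjamini-Hochberg over 11963 genes), which was tested on simulated data. Single ratios had exact permutation tests over 20 assignments. Figures used Python 3.11.15 and matplotlib 3.10.9. Promoter windows came from RefSeq; GINS4, MCM4, MCM5, POLD3, RPA2 and RPA3 were not matched.

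The members and lists were chosen with earlier results of these data known. Text gives full values for called genes whose groups did not overlap, up to 4 per role by adjusted p, plus MCM4, CDT1, GINS2, TYMS and PCNA, and up to 4 genes of each other list. Alternatives were quantile normalization, median centring (of all probe sets or, added after seeing the data, of tested genes), offsets of 1 and 64, leaving out dim genes, no variance trend, averaging all probe sets of each gene, no shared (_s_at and _x_at) probe sets, a replicate block and leaving out each array.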

Additional observations from a re-analysis of the deposited data

How the results depend on the processing

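The number of replication genes called lower was 25 and ran from 21 to 27 over the 16 alternatives; the number called higher was 7 and ran from 4 to 7, the 4 coming without a variance trend. Leaving out each array in turn gave 23 to 26 lower and 5 to 7 higher replication genes, and 1650 to 2075 lower and 1265 to 1845 higher genes in all (2128 and 1762 with all arrays). For 31 of the 32 called genes the sign held throughout. The exception was ORC5, which read 0.032 (adjusted p = 0.805) with the mean of its probe sets; a dim probe set with the opposite sign enters that mean. Of 18 called genes from the other lists that were run under these settings, 14 kept their call. AURKA, RBBP7, SUPT16H and ASF1A did not. TFDP1, also called and named below, was not run under them. ASF1A read -0.23 without shared probe sets and MKI67, not called otherwise, -0.38 with the mean of its probe sets. Correlations of same-numbered deviations were -0.03, 0.08 and -0.02. They show no pairing of arrays by replicate number, but they cannot exclude that same-numbered arrays shared a culture or infection. With the replicate block 23 replication genes were lower and 6 higher, and the calls of ORC5, POLA1 and POLE2 were lost. The number of arrays limits precision: among the 52 genes, those that did not pass had absolute log2 fold changes of up to 0.27 (POLA2, -0.17 without control replicate 1), and over all genes up to 1.58. All 52 signals lie above the dim range, and offsets of 1 and 64 changed 0 of their calls.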

Other observations

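Genes outside the replication list whose RefSeq promoter window holds 1 of the same E2F motifs were also read, as a description without a test. Of 560 such genes 135 (24.1%) were lower and 75 (13.4%) higher, with a median log2 fold change of -0.05. Among 8982 tested genes with a window and no such motif, 18.3% were lower and 15.1% higher, with a median of 0.00. The sets were not matched for signal, and bright genes pass more often. Of the listed regulators of S phase entry, read apart from the motif counts, E2F1 and E2F8 fell. RBL2, a pocket protein that restrains E2F target genes, fell as well, from 299 ± 20.5 to 166 ± 20.9 (log2 fold change -0.79, limma adjusted p = 0.000214). E2F4, a repressor form that works with RBL2, fell by 0.48 (adjusted p = 0.000335), and the phosphatase CDC25A rose by 0.43 (adjusted p = 0.00344). TFDP1 rose by 0.23 (adjusted p = 0.0097), and E2F2, E2F3, E2F5, E2F6, TFDP2, RB1 and RBL1 did not pass. These regulators were named after their values were seen, and their part in the shares above was not tested.

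Fold change and genomic gene length had a Spearman rho of 0.22 across the 52 replication genes and 0.13 across all tested genes, which share the same arrays and are not independent replicates. The median genomic length was 33343 bases for the replication genes and 28854 for all genes.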
